A study of Mus musculus with 44 samples.

Results

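Mouse peritoneal macrophages kept for 72 h with an extract of H9c2 cells were compared with macrophages kept for the same 72 h without a stimulus. The comparison takes in 6 of the 44 libraries of the series, chosen by their labelled treatment and time: 3 cell extract libraries (replicates 2, 3 and 4, 10 µg/mL of extract) and 3 control libraries (replicates 1, 3 and 4). H9c2 is a cell line derived from embryonic rat heart, so the extract presents the macrophages with the contents of broken cells from another species. All cells were adherent peritoneal cells of C57BL/6 mice, collected 4 days after thioglycolate, which draws monocytes and macrophages to the peritoneum. They were pooled from several mice into 1 isolate and grown in DMEM with 10% fetal bovine serum and antibiotics. The age and sex of the mice are not in the labels. Values of cell extract at 24 h (3 libraries) and 8 h (4), LPS at 100 ng/mL for 72 h (4), IL-4 at 10 ng/mL for 72 h (3) and control at 24 h (4) and 8 h (4) are given beside them. Because every culture comes from 1 pooled isolate, each p-value measures the spread between cultures and not between animals.

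Macrophages sense material from broken cells through Toll-like receptors, formyl peptide receptors, C-type lectins and sensors of stray nucleic acid. These signal through NF-kB, which turns on cytokines, chemokines and its own inhibitors, and through interferon regulatory factors, whose product interferon-β acts back on the cell through its receptor. LPS, which acts through such signals, gives the inflammatory state called M1, marked by Nos2 and Il1b, and IL-4 gives the state called M2, marked by Mrc1, Chil3 and Retnla.

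The cell extract libraries held 20.5, 2.91 and 10.5 M gene counts in replicates 2, 3 and 4, and the control libraries 4.47, 2.86 and 1.79 M in replicates 1, 3 and 4. Values by library below keep that order and are CPM, counts scaled by TMM to a common library size, which compare a gene between libraries but not 1 gene with another. One library in each group was rich in ribosomal RNA: 6 genes linked to it took 14.9% of counts in cell extract replicate 3 and 13.4% in control replicate 3, against 0.575% to 2.14% in the other 4. Macrophage identity genes were read in every library, and none of the 17 on that list was at 0 over all libraries of a group. Their summed levels were 43717 to 48624 CPM with cell extract and 23879 to 34627 CPM in control. The control cultures at 72 h also stood apart from the controls at 8 h and 24 h. Among the 56 gene lists used below, the summed level was above every earlier control library in all 3 libraries for 14 (sterol, LXR, PPAR, unfolded protein response, heat shock, mesothelial, smooth muscle, fibroblast, B cell, CC chemokine, M2, scavenger receptor, dead cell clearance and danger signal receptor genes) and below for 4 (MHC class I, anti-inflammatory feedback, lysosome and endothelial genes). The part of this in the differences was not tested. Reads of overlapping genes cannot be told apart without a known strand setting, which among the main genes touches Il1b (Il1bos), Cxcl10 (Art3), Fpr2 (Fpr3), Serpinb2 (Serpinb10), Tap1 (Psmb9), Irgm2 (Igtp), Gbp4 (Gbp8, Gbp9), Irf7 (Phrf1), Irf9 (Rnf31), Cdkn1c, Cyp51 (Akap9) and Tagln (Pcsk7). The near-identical H2-Q genes and the Ly6 genes are uncertain in the same way.

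Of 14537 genes tested, 2058 were higher and 1769 lower with cell extract than in control at 72 h (edgeR quasi-likelihood test, Benjamini-Hochberg adjusted p under 0.05), which is 26.3% called in either direction, 14.2% higher and 12.2% lower. Of these, 914 were higher and 960 lower by at least 2-fold, and 354 and 360 by at least 4-fold. The median log2 difference over all tested genes was 0.0042.

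Among genes at a mean of 5 CPM or more over the 6 libraries and with groups that did not overlap, the largest rise was that of Fpr1 (chr17:17876471-17883940, minus strand), the receptor for formylated peptides, which come from bacteria and from mitochondria. Fpr1 was at 111, 96.8 and 130.1 CPM with cell extract and at 0.212, 2.84 and 1.07 CPM in control, a 93.3-fold difference (log2 6.54 ± 0.769 SE, edgeR adjusted p = 1.83e-08). All 3 cell extract libraries were far above all 3 control libraries. Its neighbour in the family Fpr2 (chr17:17887824-17893952, plus strand), a receptor for formyl peptides, serum amyloid A and annexin A1, had 286, 265 and 307 CPM with cell extract and 1.27, 10.7 and 11.8 CPM in control, 40.7-fold higher (adjusted p = 5.08e-08). Control replicate 1 was the lowest of the controls for both receptors.

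Marco, a scavenger receptor for bacteria and modified lipoproteins, was at 185, 187 and 179.8 CPM with cell extract and 1.48, 3.91 and 6.42 CPM in control (54.5-fold, log2 5.77 ± 0.417 SE, adjusted p = 1.74e-13). Slc13a3, a sodium-coupled importer of succinate and other dicarboxylates, was at 31.5, 30.4 and 27.2 CPM with cell extract and 0.212, 0.711 and 0.535 CPM in control (66.3-fold, adjusted p = 3.47e-10). Both were even across the cell extract libraries and low in control. The control level of Slc13a3 rests on very few counts, so the size of its fold is uncertain. The secreted acute-phase proteins formed the next group. Haptoglobin (Hp), which binds free haemoglobin, was at 217, 229 and 276 CPM with cell extract and 4.24, 6.04 and 8.03 CPM in control (41.8-fold). Lipocalin 2 (Lcn2), which withholds iron from bacteria, was at 110.3, 121 and 145 CPM with cell extract and 1.48, 5.33 and 4.82 CPM in control (36.0-fold). Orosomucoid (Orm1) rose 45.8-fold, with only 5 counts in all 3 control libraries together. None of these genes had overlapping groups, which was a condition of their choice.

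The other large rises were Serpinb2, an inhibitor of plasminogen activators, 34.4-fold (606, 561 and 526 CPM with cell extract, 12.3, 22.8 and 14.4 CPM in control, adjusted p = 5.85e-17), and Inhba, the subunit of activin A, 30.2-fold (129, 141 and 134 CPM with cell extract, 4.24, 6.04 and 2.68 CPM in control). Ly6c2, a surface antigen of inflammatory monocytes, rose 39.1-fold, Tmeff1, a transmembrane protein with follistatin domains, 33.6-fold, and Spata13, a guanine nucleotide exchange factor, 29.2-fold. In each of these the cell extract libraries lay within a narrow range, above every control library as the rule of choice required.

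**Figure D1:**
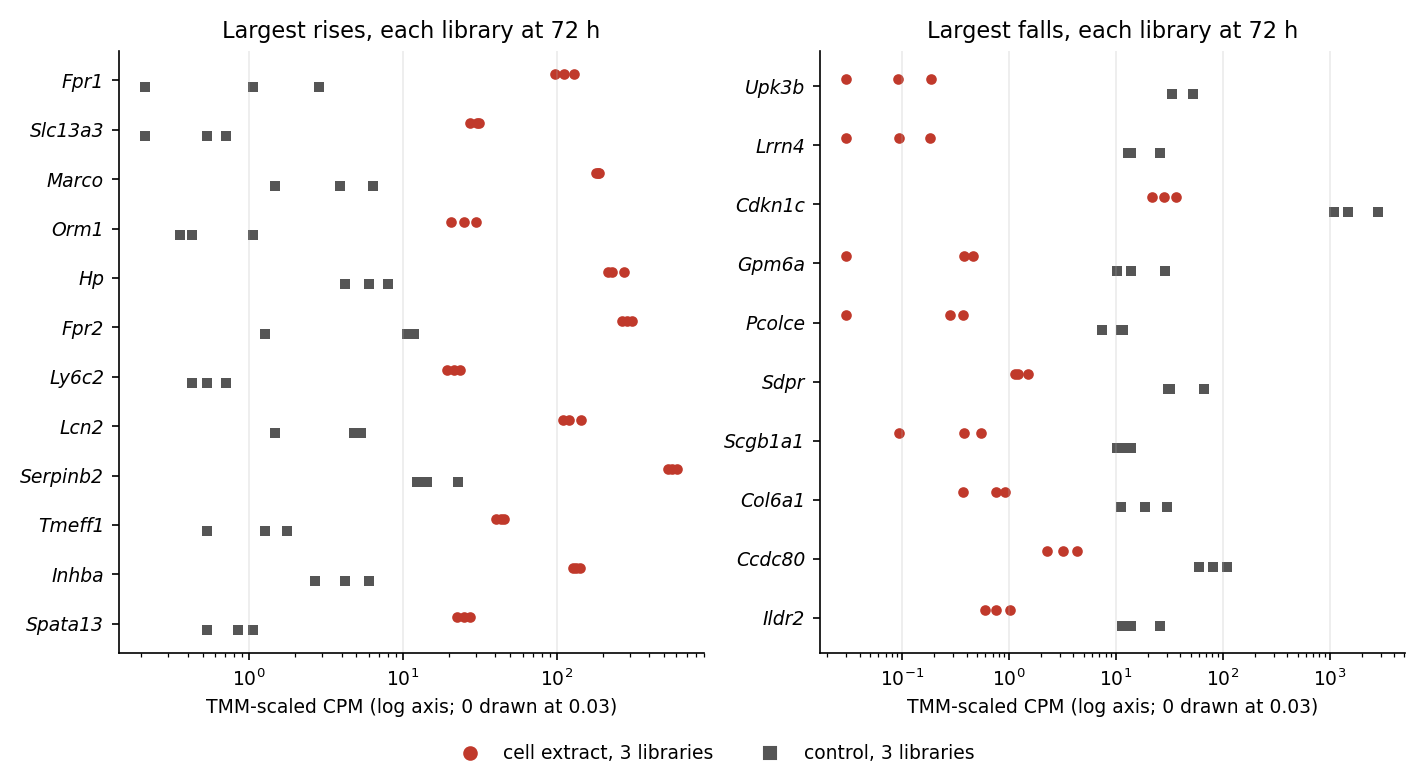
Level of the 12 genes with the largest rises and the 10 with the largest falls in each of the 6 libraries, in TMM-scaled CPM on a log axis, with circles for cell extract and squares for control. Only genes with groups that did not overlap could be chosen. Fpr1 is between 96.8 and 130.1 CPM with cell extract and between 0.212 and 2.84 CPM in control.

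Of the largest falls by the same rule, that of Upk3b was the largest. Upk3b (chr5:136038496-136046487, plus strand), a uroplakin of the mesothelium that lines the peritoneum, was at 0.0917, 0 and 0.187 CPM with cell extract, 4 counts in all, and at 52.4, 33.8 and 33.2 CPM in control (log2 -8.29 ± 0.561 SE, adjusted p = 3.07e-14). Lrrn4, another mesothelial membrane protein, was at 0.183, 0 and 0.0934 CPM with cell extract and 25.7, 13.9 and 12.8 CPM in control, and Gpm6a, a membrane glycoprotein known from neurons and mesothelium, at 0.459, 0.375 and 0 CPM with cell extract and 28.6, 13.9 and 10.2 CPM in control. These genes were near 0 with cell extract and clearly read in control. In bulk RNA, fewer cells of a type and less RNA per cell cannot be told apart.

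Cdkn1c (chr7:143458339-143461050, minus strand), an imprinted inhibitor of cyclin-dependent kinases, had the most reads among the large falls, at 28.2, 36.8 and 21.8 CPM with cell extract and 2839.8, 1098 and 1476 CPM in control (63.5-fold lower, adjusted p = 4.4e-12). Ccdc80, a secreted matrix protein, was 23.4-fold lower (4.31, 2.25 and 3.17 CPM with cell extract, 109, 59.4 and 80.8 CPM in control), and Col6a1, a collagen VI chain, was at 0.917, 0.751 and 0.373 CPM with cell extract and 11.2, 18.8 and 30.0 CPM in control. Sdpr (also named Cavin2), a coat protein of caveolae, fell 32.2-fold, Pcolce, which speeds procollagen cleavage, 33.0-fold, Scgb1a1, a secreted protein known from airway club cells, 30.9-fold, and Ildr2, an immunoglobulin-like membrane protein, 21.9-fold. Control replicate 1 was the highest of the control libraries for Upk3b, Lrrn4, Gpm6a, Sdpr and Cdkn1c, and the cell extract libraries were low throughout.

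Markers of the M1 state rose in most cases. Of the 28 M1 markers tested, 20 were higher and 2 lower, with a median log2 difference of 2.60, beside 14.2% higher and a median of 0.0042 over all tested genes. Without control replicate 1, 15 were higher and 1 lower (median 2.30), and without cell extract replicate 4, 17 were higher. Nos2, which makes nitric oxide from arginine, was at 40.1, 47.3 and 58.1 CPM with cell extract and 1.27, 5.69 and 8.56 CPM in control (10.9-fold higher, log2 3.45 ± 0.620 SE, adjusted p = 4.29e-05). Cd38, an enzyme that consumes NAD, was at 255, 205 and 244 CPM with cell extract and 18.0, 13.5 and 18.2 CPM in control (14.2-fold), and the costimulatory ligand Cd86 at 66.3, 60.0 and 71.2 CPM with cell extract and 10.8, 11.7 and 14.99 CPM in control (5.40-fold, adjusted p = 2.29e-11). For each of these the lowest cell extract library was well above the highest control library.

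The classical cytokines rose less firmly. Il1b was at 41.5, 46.9 and 56.3 CPM with cell extract and 4.03, 14.2 and 6.96 CPM in control (5.91-fold higher, log2 2.56 ± 0.848 SE, adjusted p = 0.0216), Tnf at 60.5, 64.2 and 77.2 CPM with cell extract and 6.15, 19.9 and 16.1 CPM in control (4.99-fold, adjusted p = 0.0173), and the chemokine Cxcl10 at 51.2, 42.4 and 88.4 CPM with cell extract and 3.82, 12.4 and 9.63 CPM in control (7.48-fold, adjusted p = 0.0219). The groups did not overlap, but the control values were spread widely, with replicate 1 the lowest in each gene. Without control replicate 1 the edgeR adjusted p was 0.112 for Il1b, 0.102 for Tnf and 0.109 for Cxcl10. Il1b and Cxcl10 also missed the threshold without cell extract replicate 4 (adjusted p = 0.0569 and 0.0802) or without control replicate 4 (adjusted p = 0.0659 and 0.0533). Il6, a cytokine of the acute-phase response, was at 13.8, 15.8 and 14.8 CPM with cell extract and 1.27, 9.24 and 6.42 CPM in control and did not pass the test (log2 1.51 ± 1.08 SE, adjusted p = 0.321), nor did Il12b, a subunit of IL-12, at 3.30, 3.75 and 5.14 CPM with cell extract and 0.424, 1.07 and 0 CPM in control (log2 2.90 ± 1.29 SE, adjusted p = 0.0930). Without a filter on low counts Il6 and Il12b were called higher (edgeR adjusted p = 2.37e-06 and 3.22e-08), and Il12b also with a block for replicate number (adjusted p = 0.0138), with the compared groups alone (adjusted p = 0.0104) and with DESeq2 (adjusted p = 0.0485).

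M2 markers moved both ways. Of 28 tested, 6 were higher and 10 lower (median log2 -0.58), or 7 and 7 (median -0.05) without control replicate 3. Arg1, which turns arginine into ornithine, rose: 736, 799 and 777 CPM with cell extract and 89.9, 286 and 226 CPM in control (3.85-fold, log2 1.94 ± 0.358 SE, adjusted p = 6.22e-05). So did Tgm2, a transglutaminase, 4.82-fold. Mrc1, the mannose receptor, fell: 108, 107 and 102 CPM with cell extract and 285, 232 and 198 CPM in control (2.25-fold lower, log2 -1.17 ± 0.265 SE, adjusted p = 0.000855). Pparg, a nuclear receptor for fatty acids, fell 3.28-fold, Itgax, the integrin CD11c, 2.67-fold and Cd83 1.91-fold, all with separate groups. Chil3 was at 66.4, 168 and 115 CPM with cell extract and 84.4, 328 and 207 CPM in control and Retnla at 1.79, 1.88 and 1.59 CPM with cell extract and 2.76, 12.8 and 4.82 CPM in control, and neither passed (adjusted p = 0.329 and 0.183). Both were called lower without a filter on low counts (adjusted p = 0.0371 and 9.31e-07), and Retnla also with the compared groups alone (adjusted p = 0.0291). Ccl17 had no read in any of the 6 libraries.

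Among the sensors, receptors for danger signals rose in 11 of 25 cases and fell in 2 (median log2 0.34, or 0.72 without control replicate 1), and Toll-like receptors and their adaptors in 9 of 20 with 2 falling (median log2 0.54). Tlr2, the receptor for lipopeptides, was at 214, 189.5 and 231 CPM with cell extract and 17.2, 16.7 and 16.6 CPM in control (12.5-fold, log2 3.65 ± 0.376 SE, adjusted p = 9.58e-10). Cd14, the co-receptor that hands ligands to Toll-like receptors, was at 272, 279 and 327 CPM with cell extract and 52.4, 62.9 and 77.6 CPM in control (4.58-fold). Both genes were separate between groups and even within each. Ticam2, the adaptor TRAM, rose 4.01-fold, Irak2, a kinase that carries the signal, 2.33-fold, and Irak3, which blocks it, 3.25-fold. The RNA and DNA sensors Ifih1 (MDA5) and Zbp1 rose 3.50-fold and 5.91-fold. Clec4e (Mincle), a lectin that binds a ribonucleoprotein of dead cells and mycobacterial glycolipid, was at 2646, 3018 and 3251 CPM with cell extract and 83.7, 182 and 185 CPM in control (19.8-fold, adjusted p = 2.64e-06), and Clec4n (Dectin-2) rose 5.27-fold.

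NF-kB subunits and their feedback genes were higher in 14 of 23 cases and lower in 0 (median log2 0.94). Sod2, the mitochondrial superoxide dismutase and a target of NF-kB, was at 691, 690.1 and 775 CPM with cell extract and 87.4, 83.6 and 100.1 CPM in control (7.97-fold, adjusted p = 6.37e-11). Of the inhibitors of the pathway, Tnfaip3 (A20), a ubiquitin-editing enzyme, rose 3.88-fold and Tnip3, which binds A20, 3.17-fold. The anti-apoptotic Birc3 and Cflar rose 2.96-fold and 2.88-fold. Among genes of anti-inflammatory feedback, 9 of 17 rose and 2 fell (median log2 0.95). Cd274 (PD-L1), the ligand that restrains T cells, was at 941, 736 and 873 CPM with cell extract and 96.7, 149 and 130.0 CPM in control (6.79-fold, adjusted p = 4.47e-08), and Socs3, an inhibitor of cytokine receptors, rose 4.54-fold. The immediate early factors were mixed, with 4 of 14 higher and 3 lower. Maff, a small bZIP factor, rose 4.24-fold, Ier3 3.53-fold and Fosl2 2.05-fold, and Jun fell 1.46-fold (not called without a filter on low counts, adjusted p = 0.183).

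In the interleukin 1 family 5 of 10 genes rose and 2 fell (median log2 0.66, or 1.04 without control replicate 1). Ligand and receptor moved in opposite directions: Il1a was at 233, 251 and 269 CPM with cell extract and 49.2, 62.9 and 58.3 CPM in control (4.43-fold higher, adjusted p = 4.75e-05), and Il1r1, the signalling receptor, at 13.3, 13.9 and 13.1 CPM with cell extract and 45.8, 37.7 and 33.7 CPM in control (2.95-fold lower, adjusted p = 1.38e-06). Il18bp, which neutralises IL-18, rose 6.94-fold and the IL-36 receptor Il1rl2 3.19-fold. Of the other cytokines 6 of 20 rose and 1 fell (median log2 1.59, or 1.51 with genes at 0 counts in 1 group at their bounds). Tnfsf9 (4-1BB ligand) rose 11.8-fold and oncostatin M (Osm) 3.36-fold, and Csf1, the growth factor macrophages depend on, fell 1.96-fold (19.8, 18.0 and 18.6 CPM with cell extract, 48.3, 26.7 and 34.8 CPM in control).

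Of the CXC chemokines and their receptors 8 of 14 rose, 6 without control replicate 1 or cell extract replicate 4, and 3 fell (median log2 1.77). Cxcl16, a membrane-bound chemokine that also takes up oxidised lipoprotein, was at 488, 495 and 541 CPM with cell extract and 65.9, 69.0 and 91.5 CPM in control (6.76-fold, adjusted p = 4.01e-08). Cxcr4 and its ligand Cxcl12 went opposite ways: the receptor was at 261, 209.8 and 271 CPM with cell extract and 75.5, 79.6 and 72.8 CPM in control (3.26-fold higher), and the ligand at 2.25, 1.13 and 1.77 CPM with cell extract and 19.3, 12.8 and 16.6 CPM in control (8.60-fold lower, adjusted p = 3.12e-09). In the CC family 7 of 17 rose, 4 without control replicate 1, and 3 fell (median log2 0.88). The summed level was 3168 to 3508 CPM with cell extract and 2339.9 to 2579.6 CPM in control, against 978 to 1173 CPM in control at 24 h. Ccl5 (RANTES) was at 215, 317 and 307 CPM with cell extract and 7.84, 33.4 and 34.3 CPM in control (11.5-fold, adjusted p = 0.000105). Its receptor Ccr1 rose 2.33-fold, and Ccl9 fell 1.83-fold. Ccl24, an eosinophil attractant and M2 marker, had no read with cell extract and only 6 counts in control. It was 7.36-fold lower against a floor of 3 counts over the cell extract libraries, which leaves out the counting error of the control.

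**Figure D2:**
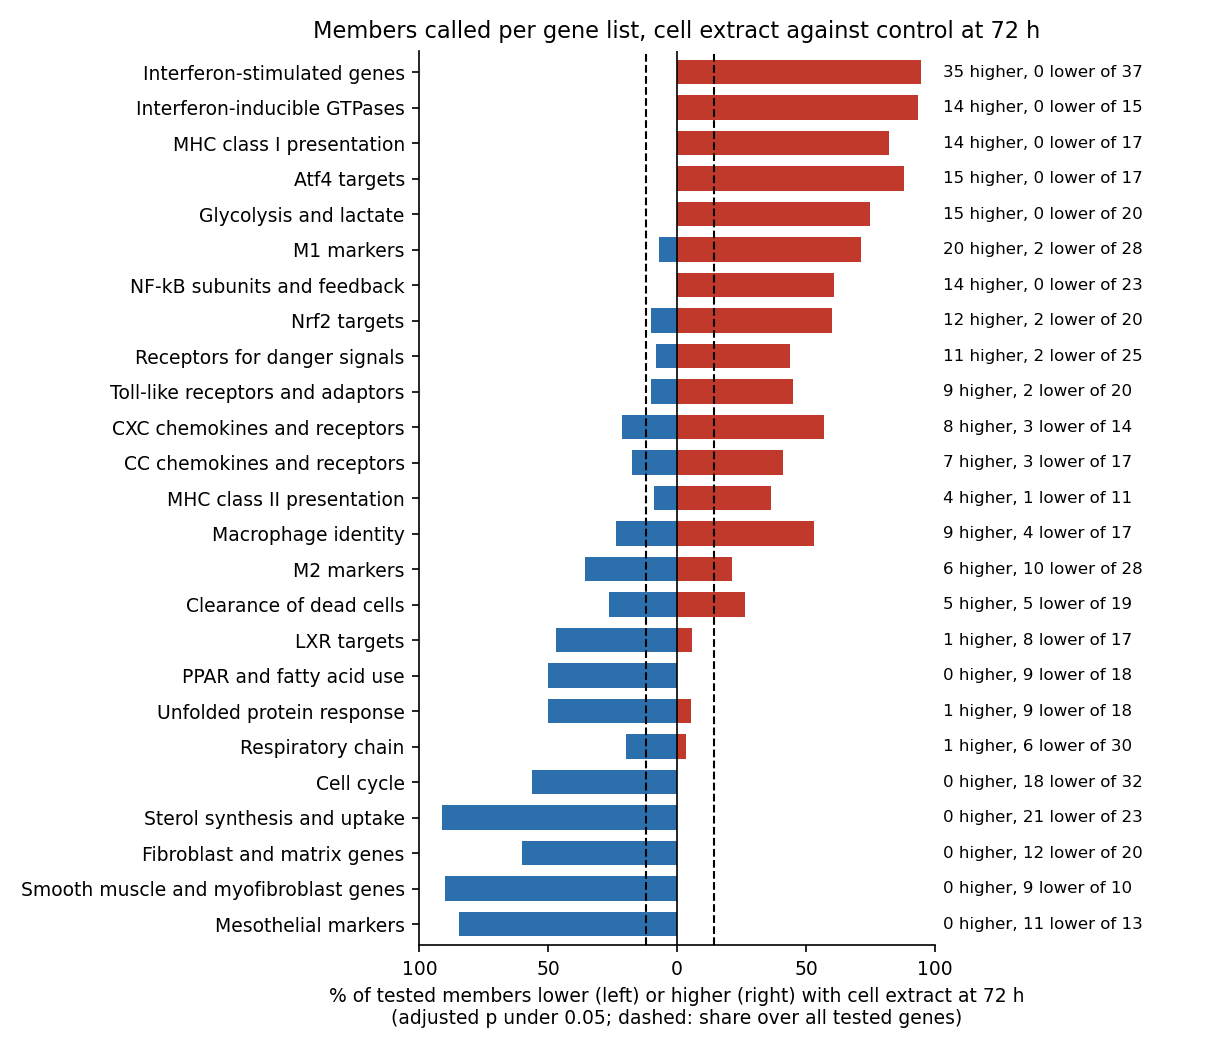
Share of the tested members of 25 gene lists that were lower (bars to the left) or higher (bars to the right) with cell extract than in control at 72 h, in percent, with the counts at the right and dashed lines at the share over all tested genes (12.2% lower, 14.2% higher). The interferon, MHC class I, NF-kB, glycolysis and Atf4 lists hold no lower member, and the sterol, cell cycle, smooth muscle, fibroblast and mesothelial lists hold no higher one.

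Interferon-stimulated genes, which limit viral growth, rose in 35 of 37 tested cases with none lower (median log2 2.11). Their summed level was 3368 to 3809.7 CPM with cell extract and 846 to 983 CPM in control. Rtp4, a chaperone of receptors, was at 63.6, 57.0 and 67.8 CPM with cell extract and 5.51, 7.11 and 4.82 CPM in control (10.7-fold, log2 3.42 ± 0.290 SE, adjusted p = 9.32e-12). Oasl2, a 2′-5′ oligoadenylate synthetase-like protein, rose 4.75-fold and Herc6, the mouse ligase that attaches Isg15, 3.30-fold. The factors that drive these genes rose too. Stat2 was at 67.2, 65.3 and 79.7 CPM with cell extract and 19.5, 18.8 and 21.9 CPM in control (3.55-fold, adjusted p = 7.09e-11), and Irf9, its partner on DNA, rose 2.07-fold. Irf7, which amplifies interferon production, was at 123, 155 and 168 CPM with cell extract and 6.57, 16 and 20.3 CPM in control (11.0-fold), and Irf1 rose 6.18-fold. Of all 15 IRF and STAT factors, 7 were higher and 2 lower (median log2 0.40).

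The interferon-inducible GTPases, which attack the membranes of intracellular parasites, rose in 14 of 15 cases with none lower (median log2 2.75), and log2 differences ran between 1.76 and 5.09. Irgm1 was at 174, 171 and 185 CPM with cell extract and 40.3, 51.6 and 44.4 CPM in control (3.90-fold, adjusted p = 9.17e-12), and Gbp7 at 168, 177 and 174 CPM with cell extract and 28.0, 26.7 and 21.9 CPM in control (6.71-fold, adjusted p = 8.26e-10). Irgm2 rose 6.15-fold, Igtp 4.76-fold and Gbp4 15.7-fold. These 5 had the smallest p on the list, a choice that favours even libraries and groups far apart, as seen in all of them.

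The promoters of Irgm1, Irgm2 and Gbp7 are shown as the 250 bases before the RefSeq start (GRCm38.p6), 5′ to 3′ on the gene's strand. The interferon-stimulated response element, searched as GAAA, any 2 bases and GAAA on either strand, is in capitals. Irgm1 (chr11:48871421-48871670, minus strand) holds 2 overlapping matches, the farther of which begins 30 bases before the start. Irgm2 (chr11:58214727-58214976, plus strand) holds 1 match 64 bases before the start and Gbp7 (chr3:142530086-142530335, plus strand) 1 match 53 bases before it.
Irgm1: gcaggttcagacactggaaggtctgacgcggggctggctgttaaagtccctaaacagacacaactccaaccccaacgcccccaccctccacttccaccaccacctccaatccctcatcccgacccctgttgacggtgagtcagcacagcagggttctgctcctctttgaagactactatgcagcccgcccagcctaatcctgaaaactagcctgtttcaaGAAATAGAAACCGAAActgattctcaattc
Irgm2: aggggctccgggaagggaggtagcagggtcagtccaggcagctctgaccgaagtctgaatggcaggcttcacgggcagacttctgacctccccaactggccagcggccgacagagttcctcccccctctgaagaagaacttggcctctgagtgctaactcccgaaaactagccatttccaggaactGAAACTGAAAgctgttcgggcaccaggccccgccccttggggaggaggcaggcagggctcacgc
Gbp7: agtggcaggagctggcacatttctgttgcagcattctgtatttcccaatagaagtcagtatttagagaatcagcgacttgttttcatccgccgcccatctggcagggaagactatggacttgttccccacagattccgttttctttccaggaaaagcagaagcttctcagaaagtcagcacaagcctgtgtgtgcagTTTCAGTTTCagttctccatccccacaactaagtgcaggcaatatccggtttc
All 10 GTPase genes that had a promoter in the RefSeq table hold this motif on 1 strand or the other within 250 bases, and 9 of them were called higher. The motif also stands in 11 of 27 interferon-stimulated genes and 3 of 15 genes of MHC class I presentation, against 3.46% of 27025 genes. The GTPases are grouped by their known response to interferon, so their share is not a result of the 72 h comparison. A match in these letters is a description of the sequence and not of binding.

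Antigen presentation by MHC class I, which shows peptides from inside the cell, rose in 14 of 17 genes with none lower (median log2 1.32). H2-K1, a classical class I chain, was at 2854, 2478 and 2834 CPM with cell extract and 794, 1057 and 1013 CPM in control (2.85-fold, adjusted p = 5.15e-08), and Tap1, which pumps peptides into the endoplasmic reticulum, at 162, 151 and 153 CPM with cell extract and 24.0, 26.7 and 38.5 CPM in control (5.31-fold). Of the H2-Q genes, H2-Q7 rose 12.6-fold, H2-Q6 20.1-fold and H2-Q4 5.47-fold. The class I sum was 13936 to 15689 CPM with cell extract and 7306 to 8743 CPM in control, against 10275 to 11278 CPM in control at 24 h. In MHC class II presentation 4 of 11 genes were higher and 1 lower (median log2 0.36). Only 2 were higher without cell extract replicate 4 or control replicate 3, and 1 without control replicate 1. Cd74, the invariant chain, was at 304, 226 and 254 CPM with cell extract and 92.0, 154 and 155 CPM in control (1.96-fold higher), and Ifi30, a lysosomal thiol reductase, fell 1.58-fold (not called without a filter on low counts, adjusted p = 0.0686). Of the costimulatory and checkpoint ligands 5 of 13 rose and 2 fell (median log2 0.50, or 0.89 without control replicate 3), with Cd86, Cd274 and Tnfsf9 among the risers.

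Secreted defence proteins rose in part. Of 13 acute-phase and granule proteins tested, 6 rose and 2 fell (median log2 2.02). Serum amyloid A3 (Saa3) was at 3397, 3746 and 4367 CPM with cell extract and 202, 321 and 386 CPM in control (12.7-fold higher, adjusted p = 1.03e-09), and S100a4, a calcium-binding protein of motile cells, at 4.998, 8.63 and 5.32 CPM with cell extract and 50.9, 67.9 and 77.6 CPM in control (11.2-fold lower). In complement 5 of 15 genes rose and 4 fell (median log2 -0.09, or 0.03 without control replicate 3). Factor B (Cfb), the protease of the alternative pathway, was at 76.1, 68.3 and 84.8 CPM with cell extract and 2.12, 4.27 and 5.35 CPM in control (21.5-fold), C3 rose 3.05-fold and C1ra 5.99-fold. Cd55, which breaks up the C3 convertase on host cells, was at 3.49, 3.00 and 2.52 CPM with cell extract and 51.5, 29.5 and 40.1 CPM in control (13.3-fold lower, adjusted p = 1.74e-13). Of the matrix proteases and the plasminogen system 10 of 21 rose and 4 fell, 2 without control replicate 1 (median log2 0.53). Mmp2, a gelatinase, was at 21.4, 21.4 and 22.2 CPM with cell extract and 0.848, 1.07 and 2.14 CPM in control (17.9-fold), Timp1, an inhibitor of metalloproteases, rose 7.35-fold and thrombospondin 1 (Thbs1) 4.82-fold.

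Arginine and polyamine metabolism rose in 8 of 13 genes and fell in 1 (median log2 0.86). Ass1, which rebuilds arginine from citrulline, was at 72.0, 74.3 and 87.5 CPM with cell extract and 2.12, 3.91 and 4.82 CPM in control (23.6-fold, adjusted p = 2.48e-08), and the arginine importers Slc7a2 and Slc7a1 rose 4.21-fold and 2.31-fold. Irg1 (also named Acod1), which makes itaconate from a tricarboxylic acid cycle intermediate, was at 501, 569.7 and 565 CPM with cell extract and 10.4, 30.6 and 30.5 CPM in control (23.6-fold, adjusted p = 4.13e-05). Of 19 genes in the itaconate and cycle list 2 rose, Irg1 and Dlst, and 2 fell, Suclg1 and Idh1 (median log2 -0.05). Dlst lost its call without cell extract replicate 4, with the compared groups alone and without a filter on low counts (edgeR adjusted p = 0.0682, 0.0605 and 0.144), Idh1 without the libraries rich in ribosomal RNA and without a filter (adjusted p = 0.0770 and 0.153), and Suclg1 without a filter (adjusted p = 0.0733). Glycolysis and lactate genes rose in 15 of 20 cases with none lower (median log2 0.74). Without control replicate 1, 10 rose (median 0.52), with the compared groups alone 11, and without cell extract replicate 4, 12. Pfkfb3, whose product drives phosphofructokinase, was at 109.8, 101 and 120.5 CPM with cell extract and 43.7, 33.8 and 34.8 CPM in control (2.93-fold), the glucose transporter Slc2a1 (GLUT1) rose 2.49-fold, hexokinase 2 (Hk2) 1.97-fold and enolase (Eno1) 2.76-fold. In the respiratory chain 1 of 30 genes rose and 6 fell (median log2 -0.29), beside 12.2% lower over all tested genes. Without cell extract replicate 2, 3 fell, and without control replicate 4, 2 fell, with a median of -0.10. Uqcrh, a hinge subunit of complex III, was at 90.9, 95.3 and 111 CPM with cell extract and 246, 314 and 412 CPM in control (3.27-fold lower).

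Genes of sterol synthesis and uptake fell together. Of 23 tested, 21 were lower and none higher (median log2 -1.17), against 12.2% lower over all tested genes. Cyp51, the lanosterol demethylase, was at 41.4, 49.9 and 44.8 CPM with cell extract and 189, 144 and 180.4 CPM in control (3.79-fold lower, log2 -1.92 ± 0.155 SE, adjusted p = 2.93e-12). Hmgcs1, which makes the HMG-CoA that feeds the pathway, was at 58.9, 57.8 and 58.9 CPM with cell extract and 198, 123 and 142 CPM in control (2.64-fold lower). Sc5d and Msmo1, later enzymes of the pathway, fell 2.41-fold and 2.25-fold, and Lss, lanosterol synthase, 2.02-fold. The groups were separate in all 5, which were named for the smallest p on the list. The summed level of the list was 725 to 764 CPM with cell extract and 1555 to 1808 CPM in control at 72 h. In control at 24 h it was 985 to 1108 CPM and at 8 h 1010.4 to 1114 CPM, so the 72 h controls were above the earlier ones and the 72 h cell extract libraries below them. LPS and IL-4 cultures at 72 h had 548 to 761 and 569 to 717 CPM.

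The promoter of Hmgcs1 (chr13:119690101-119690350, plus strand) is shown for a classical sterol regulatory element, here TCACNCCAC or its reverse complement, in capitals, 137 bases before the start in the RefSeq sequence of GRCm38.p6.
Hmgcs1: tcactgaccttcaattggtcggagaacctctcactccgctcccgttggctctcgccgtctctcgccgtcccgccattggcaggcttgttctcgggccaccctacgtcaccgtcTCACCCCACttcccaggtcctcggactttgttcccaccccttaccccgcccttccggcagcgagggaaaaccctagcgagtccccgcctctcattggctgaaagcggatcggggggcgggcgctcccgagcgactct
It was the only 1 of 16 sterol genes with a promoter in the table that held these letters, against 1.22% of 27025 genes. The absence of the letters from the other windows says nothing of the factor.

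Targets of LXR, the receptor for oxysterols, were higher in 1 and lower in 8 of 17 cases (median log2 -0.51, or -0.77 without control replicate 1). Their summed level was 4440.3 to 4601 CPM with cell extract and 7885 to 9247 CPM in control, against 5871 to 7153 CPM in control at 24 h. The 1 that rose was Abca1, which exports cholesterol, at 756, 756 and 846 CPM with cell extract and 278, 168 and 163 CPM in control (3.86-fold, adjusted p = 5.29e-08). Apoe, a carrier of cholesterol, was at 1583, 1635 and 1629 CPM with cell extract and 2988, 4031 and 5069.8 CPM in control (2.49-fold lower), lipoprotein lipase (Lpl) fell 2.25-fold, and the stearoyl-CoA desaturases Scd1 and Scd2 5.95-fold and 2.85-fold. Of the genes of PPAR and fatty acid use none of 18 rose and 9 fell (median log2 -0.58), with sums of 9086 to 9361 CPM with cell extract and 13325 to 15235 CPM in control, against 10597 to 12045 CPM in control at 24 h. Angptl4, an inhibitor of lipoprotein lipase, fell 5.93-fold, Fabp5, a fatty acid carrier, 1.69-fold and Plin2, a lipid droplet coat, 1.46-fold, which was not called without a filter on low counts (adjusted p = 0.268).

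Stress programmes differed from each other. Nrf2 targets, which handle oxidants, rose in 12 of 20 cases and fell in 2 (median log2 0.74). Slc7a11, the cystine importer, was at 303, 293 and 316 CPM with cell extract and 36.0, 34.8 and 24.6 CPM in control (9.45-fold, adjusted p = 9.17e-12), Sqstm1 (p62), an autophagy receptor, rose 3.40-fold, Gclm, for glutathione synthesis, 2.82-fold and peroxiredoxin 1 (Prdx1) 1.95-fold, and Gstm1, a glutathione transferase, fell 2.22-fold. Atf4 targets, which supply amino acids under stress, rose in 15 of 17 cases with none lower (median log2 1.02). Asns, asparagine synthetase, was at 124, 118 and 131 CPM with cell extract and 32.0, 33.8 and 33.7 CPM in control (3.76-fold, log2 1.91 ± 0.154 SE, adjusted p = 2.91e-12). The pseudokinase Trib3 rose 3.81-fold, the amino acid transporter Slc7a5 3.94-fold, Mthfd2, of mitochondrial one-carbon metabolism, 2.43-fold and Psat1, of serine synthesis, 2.34-fold. In each the 3 cell extract values lay above the 3 control values with a wide gap, which their choice by the smallest p favours.

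The Asns promoter (chr6:7693210-7693459, minus strand) is shown for the amino acid response element, here TGATGNAA or its reverse complement, in capitals, 23 bases before the start (RefSeq, GRCm38.p6).
Asns: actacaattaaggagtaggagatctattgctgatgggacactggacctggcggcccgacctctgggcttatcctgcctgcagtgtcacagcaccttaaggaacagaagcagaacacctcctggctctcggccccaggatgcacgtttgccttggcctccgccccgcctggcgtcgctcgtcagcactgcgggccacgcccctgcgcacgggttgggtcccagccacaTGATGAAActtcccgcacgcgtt
These letters stood in 3 of 15 Atf4 target promoters in the table, those of Asns, Chac1 and Nupr1, and in 3.91% of 27025 genes. The same kind of search found the NF-kB letters, GGGA, any 2 bases and TTCC, in 2 of 20 NF-kB genes (1.36% of all genes) and the antioxidant response element TGACNNNGC in 5 of 17 Nrf2 targets (11.5% of all genes).

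The unfolded protein response, which serves the endoplasmic reticulum, went the other way, with 1 of 18 genes higher and 9 lower (median log2 -0.38, or -0.22 without control replicate 3). The chaperones Calr and Hspa5 were at 266, 375 and 314 CPM and 565, 619 and 536 CPM with cell extract, and at 1069, 704 and 1041 CPM and 1277, 769.8 and 948 CPM in control (2.95-fold and 1.74-fold lower, adjusted p = 2.36e-06 and 0.000107). Sdf2l1 fell 2.00-fold, and Herpud1, which clears misfolded protein, was the 1 that rose, 1.80-fold. As with the sterol genes, the 72 h controls stood above earlier ones: Hspa5 averaged 998 ± 257 CPM in control at 72 h, 511 ± 39.4 CPM (SD, n = 4) at 24 h and 607 ± 77.7 CPM (SD, n = 4) at 8 h. Heat shock genes fell in 5 of 12 cases with none higher (median log2 -0.56), but leaving out single libraries left 1 to 5 of them, with 1 without control replicate 1 (median -0.28) and 2 without any 1 of the cell extract libraries.

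Genes for the clearance of dead cells moved both ways, with 5 of 19 higher and 5 lower (median log2 -0.14), or 4 and 8 with RLE size factors, and 3 higher without control replicate 1. Anxa1, annexin A1, was at 765, 684 and 728 CPM with cell extract and 2661, 2772 and 2468 CPM in control (3.63-fold lower, adjusted p = 2.13e-12). Gas6, the bridge from phosphatidylserine to Mer and Axl, fell 4.07-fold and C1qb, a chain of C1q, 3.49-fold, and Cd300lf, a receptor for phosphatidylserine and ceramide, rose 2.40-fold. Of the scavenger receptors 6 of 13 rose and 5 fell (median log2 0.37), or 4 and 6 with RLE size factors. With single libraries left out 4 to 5 rose. Beside Marco the risers were led by Olr1 (LOX-1), which takes up oxidised lipoprotein, at 37.6, 35.3 and 46.4 CPM with cell extract and 3.18, 4.98 and 2.68 CPM in control (11.0-fold), and Msr1, 2.04-fold higher. In the cathepsin and lysosome list 5 of 26 rose and 5 fell (median log2 0.06), or 3 and 6 with RLE size factors, and 3 rose without cell extract replicate 2 or 4 or control replicate 3. Cathepsin C (Ctsc) rose 2.42-fold and the cholesterol exporter Npc1 2.28-fold, and lysosomal acid lipase (Lipa) fell 2.30-fold, the glucuronidase Gusb 1.98-fold and cystatin C (Cst3) 2.06-fold.

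Cell cycle genes fell in 18 of 32 cases with none higher (median log2 -0.89). Top2a, the topoisomerase of dividing cells, was at 15.5, 14.6 and 15.3 CPM with cell extract and 48.3, 35.6 and 32.6 CPM in control (2.59-fold lower, adjusted p = 9.38e-08), Ccnb2, a cyclin of mitosis, fell 4.68-fold and Birc5 (survivin) 4.67-fold. The control level was the higher at every one of these genes, which were named for a small p. None of the 3 pairs of groups overlapped. Of 30 genes in the list of cytosolic ribosomal proteins 1 rose, the elongation factor Eef1a1 (1.73-fold), and 1 fell (median log2 -0.22). Without control replicate 1, 3 fell (median -0.37), and without control replicate 4 none did (median -0.05).

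Further lists held smaller groups. Of 12 Ly6 and Schlafen genes, surface antigens and growth regulators of myeloid cells, 10 rose and none fell (median log2 1.53, or 2.67 without control replicate 4), with Slfn4 12.7-fold and Slfn1 21.9-fold higher. Monocyte markers rose in 5 of 16 cases and fell in 1 (median log2 0.30, or 0.13 and 0.11 without control replicate 1 or 3), and leaving out single libraries left 3 to 5 rising, with 3 without cell extract replicate 2 or control replicate 3 or 4. Of the dendritic cell markers 2 of 12 rose and 3 fell (median log2 0.20), with 1 rising without control replicate 1. That median turned negative without cell extract replicate 2 (-0.48), without control replicate 1 (-0.39) or 4 (-0.04) and with a block for replicate number (-0.25). Among C-type lectins 5 of 14 rose and 5 fell (median log2 -0.41), with Clec4a1, an immune lectin, 3.06-fold higher and Clec10a, a lectin for galactose known from M2 cells, 6.12-fold lower. Of the Trem, Siglec and Fc receptors 7 of 18 rose and 5 fell (median log2 0.28, or -0.13 with genes at 0 counts in 1 group at their bounds). Fcgr2b, the inhibitory Fc receptor, rose 2.06-fold (adjusted p = 1.55e-08).

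Of the growth and angiogenic factors 6 of 19 rose and 6 fell (median log2 -0.27, with -0.44 without cell extract replicate 2, -0.08 without replicate 3 and -0.14 without control replicate 1). Vegfa, the main signal for new vessels, was at 297, 226 and 259 CPM with cell extract and 116, 73.2 and 99.0 CPM in control (2.71-fold higher, adjusted p = 1.92e-07), and Tgfbi, a matrix protein induced by TGF-β, at 311, 309 and 352 CPM with cell extract and 11.4, 12.1 and 13.4 CPM in control (26.6-fold higher). In the prostaglandin and leukotriene pathway 6 of 16 genes rose and 3 fell (median log2 0.43). Ptges, which makes prostaglandin E, rose 7.34-fold, and Hpgds, which makes prostaglandin D, fell 4.59-fold. Of the iron and haem genes 6 of 17 rose and 5 fell, 3 without control replicate 1 or cell extract replicate 4 (median log2 0.36, or 0.22 without control replicate 1). Ceruloplasmin (Cp), a ferroxidase, rose 5.39-fold.

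Macrophage identity genes rose in 9 of 17 cases and fell in 4 (median log2 0.52), with 7 to 8 rising when single libraries were left out. Adgre1 (F4/80) was at 1123, 1078 and 1215 CPM with cell extract and 137, 168 and 165 CPM in control (7.28-fold, log2 2.86 ± 0.220 SE, adjusted p = 9.62e-13), lysozyme (Lyz2) at 24074, 23386 and 27138 CPM with cell extract and 8082, 13095 and 15433 CPM in control (2.04-fold), and Itgam (CD11b) rose 2.19-fold. Maf, a factor of tissue macrophages, fell 2.71-fold. Of 12 genes of resident peritoneal macrophages 3 rose, Saa3 among them, and 5 fell (median log2 -0.78). Gata6, the factor that defines that population, was at 3.85, 3.38 and 4.39 CPM with cell extract and 36.0, 19.2 and 10.7 CPM in control (5.75-fold lower), Cd93 fell 2.56-fold and Cd9 1.93-fold.

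Markers of mesothelium, smooth muscle, fibroblasts and B cells, other cells of the peritoneum, were lower with cell extract. Mesothelial markers were lower in 11 of 13 tested cases (median log2 -3.83), with summed levels of 8.59 to 17.9 CPM with cell extract and 99.5 to 163 CPM in control. Of the list's 15 genes, 2 had no read with cell extract, Cldn15 and Muc16, and 1 had none in control, Muc16. Wt1, the mesothelial transcription factor, was at 1.74, 1.13 and 2.24 CPM with cell extract and 16.7, 15.3 and 14.99 CPM in control (8.57-fold lower). Smooth muscle and myofibroblast genes were lower in 9 of 10 cases (median log2 -2.85, sums 154 to 182 CPM with cell extract and 366 to 574 CPM in control). Acta2, smooth muscle actin, was at 1.74, 3.00 and 1.87 CPM with cell extract and 31.6, 35.9 and 34.8 CPM in control (17.1-fold lower, adjusted p = 8.38e-15), Tagln, an actin binder, fell 18.4-fold and desmin (Des) 10.3-fold. All 3 were separate by a wide margin.

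Fibroblast and matrix genes were lower in 12 of 20 cases (median log2 -1.44, sums 888 to 906 CPM with cell extract and 1351 to 2162 CPM in control). In control at 24 h that sum was 675 to 871 CPM, below the 72 h cell extract libraries. Sparc, a collagen-binding matrix protein, was at 56.2, 66.8 and 51.5 CPM with cell extract and 433, 207 and 287 CPM in control (5.36-fold lower), and the collagen I chains Col1a1 and Col1a2 fell 4.55-fold and 3.63-fold. Of 14 basement membrane genes 1 rose and 9 fell, 5 without cell extract replicate 4 (median log2 -1.27). B cell markers fell in 5 of 8 cases (sums 8.12 to 14.03 CPM with cell extract and 31.6 to 38.2 CPM in control, against 16.5 to 20.9 CPM in control at 24 h), 2 without cell extract replicate 4 and 3 without control replicate 1 or 4. Ighm, the immunoglobulin M heavy chain, fell 4.38-fold. On the T and NK list 5 of 11 rose, 2 without cell extract replicate 2 and 3 without control replicate 3 or 4, and 1, Il7r, fell, which it did not without control replicate 1 or without a filter on low counts. The summed level of the list was the lower with cell extract, at 656 to 695 CPM, against 876 to 1423 CPM in control. Its median log2 was 1.82, 5.58 without control replicate 1, or 0.81 with genes at 0 counts in control at their bounds. Lck, a kinase of T cell signalling, was at 4.36, 3.38 and 4.20 CPM with cell extract and 0.636, 1.07 and 0 CPM in control (6.34-fold higher, adjusted p = 2.97e-05).

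Neutrophil markers held 1 higher gene, Mmp8 (10.6-fold), and 1 lower of 7 tested, and 7 of the 14 on the list did not pass the filter on low counts. Mast cell and eosinophil markers held 1 lower of 9, Siglecf. Of 3 striated muscle genes and 5 endothelial markers tested none passed in either direction. The part these other cells have in the falls was not tested. The mesothelial sum was low with cell extract at 24 h too, at 10.2 to 13.8 CPM. At that time 9 of 13 genes were lower and none higher, beside 10.4% lower over all tested genes. The sum was 31.7 to 39.3 CPM in control at 24 h and 26.4 to 33.4 CPM at 8 h. It was 19.8 to 46.4 CPM with LPS and 11.95 to 35.8 CPM with IL-4 at 72 h. The 72 h cell extract libraries were thus below every earlier control and every LPS library, and the 72 h controls above all of them.

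**Figure D3:**
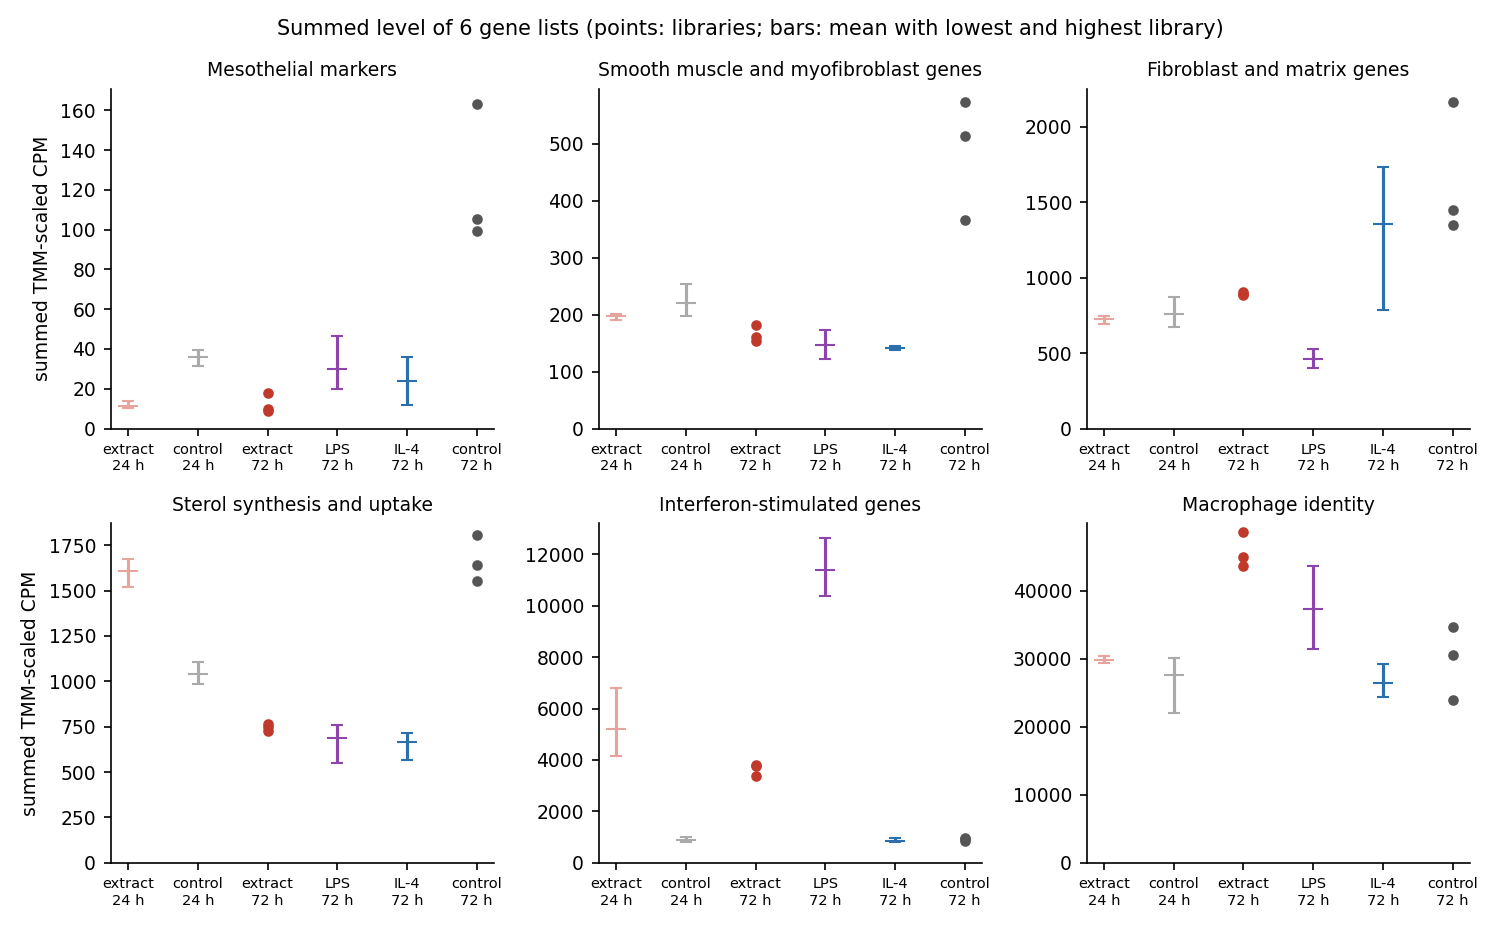
Summed level of 6 gene lists in TMM-scaled CPM, with each library as a point for cell extract and control at 72 h, and the mean with the lowest and highest library as a bar for cell extract and control at 24 h and for LPS and IL-4 at 72 h. The 72 h controls are the highest group on the mesothelial and smooth muscle lists, while the interferon list is at 3368 to 3809.7 CPM with cell extract at 72 h and at 846 to 983 CPM in control.

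The effect of cell extract at 72 h was then set against its effect at 24 h, where cell extract (3 libraries) was compared with its own controls (4). At 24 h 1700 genes were higher and 1509 lower (22.1% of those tested, 11.7% higher and 10.4% lower). Of the 2058 genes higher at 72 h, 965 were also higher at 24 h (46.9% of the 72 h list and 56.8% of the 24 h list), and of the 1769 lower at 72 h, 611 were also lower at 24 h (34.5% and 40.5%). Called the opposite way at 24 h were 55 of the genes higher at 72 h and 61 of those lower at 72 h. The difference between the effects passed its own test for 1247 genes (8.58%), 640 with the more positive effect at 72 h (4.40%) and 607 with the more negative one (4.18%).

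The sterol genes turned round. Of 23 tested, 21 were lower and none higher at 72 h. At 24 h 15 were higher and none lower, beside 11.7% higher over all tested genes. The effects differed in 21 (median log2 difference of effects -1.93, against 0.06 over all genes). Cyp51 averaged 45.4 ± 4.28 CPM with cell extract and 171 ± 24.1 CPM in control at 72 h (SD, n = 3 each), and 129 ± 5.75 CPM (n = 3) with cell extract and 68.7 ± 4.15 CPM (n = 4) in control at 24 h. Its effect at 72 h minus that at 24 h was -2.83 ± 0.206 on the log2 scale (SE, edgeR adjusted p = 9.51e-13). Scd2 moved in the same manner, with log2 effects of -1.51 at 72 h and 2.49 at 24 h. In both genes the cell extract mean was lower at 72 h than at 24 h and the control mean higher, with Scd2 at 81.8 ± 5.15 CPM with cell extract and 233 ± 40.1 CPM in control at 72 h, and 325 ± 22.6 CPM with cell extract and 58.0 ± 8.40 CPM in control at 24 h.

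The smooth muscle genes Acta2 and Tagln had log2 effects of -4.10 and -4.20 at 72 h, against 0.82 and 0.54 at 24 h, and the difference passed for both (adjusted p = 1.17e-13 and 6.89e-13). Acta2 averaged 2.20 ± 0.694 CPM with cell extract and 34.1 ± 2.24 CPM in control at 72 h, and 17.8 ± 0.939 CPM with cell extract and 10.1 ± 2.04 CPM in control at 24 h. Of the list, 7 of 10 genes had a more negative effect at 72 h. Calr and Hspa5 were lower with cell extract at 72 h (log2 -1.56 and -0.80) and higher at 24 h (log2 0.95 and 1.04), and 13 of 18 genes of that response had the more negative effect at 72 h.

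**Figure D4:**
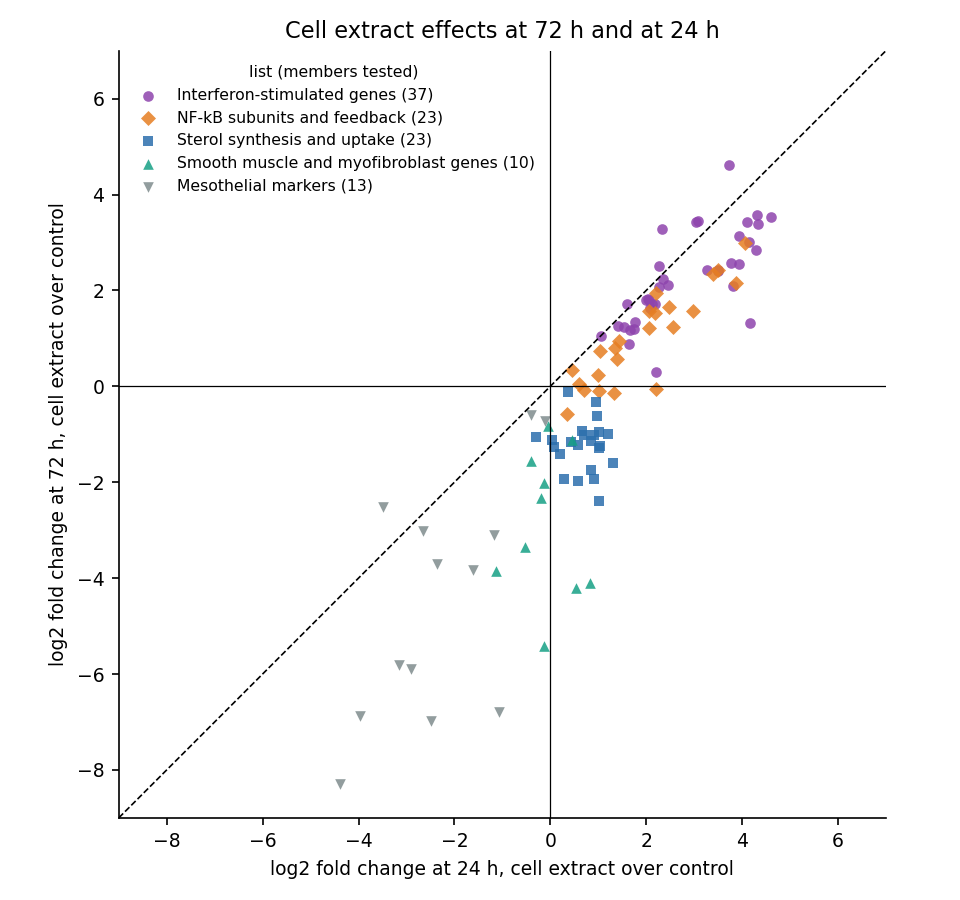
Log2 fold change of cell extract over control at 72 h (vertical axis) and at 24 h (horizontal axis) for the tested members of 5 gene lists, with the dashed line where both are equal. Sterol genes lie below 0 at 72 h and mostly above 0 at 24 h, while interferon-stimulated genes are above 0 at both times.

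The largest positive differences, for genes at a mean of 5 CPM or more over the 4 groups, were in Cdo1, F5, Slc27a6, Abcb1a and Car6. Cdo1, cysteine dioxygenase, averaged 51.5 ± 8.37 CPM with cell extract and 5.57 ± 0.758 CPM in control at 72 h, and 1.47 ± 0.245 CPM with cell extract and 3.11 ± 0.495 CPM in control at 24 h (difference of effects 4.35 ± 0.462 SE, adjusted p = 2.2e-08). Abcb1a, a drug exporter, had log2 effects of 3.08 at 72 h and -0.44 at 24 h, the fatty acid transporter Slc27a6 1.86 and -1.86, coagulation factor V (F5) 1.79 and -1.98, and carbonic anhydrase 6 (Car6) 2.95 and -0.36. Cxcr4, named above, was higher at 72 h and lower at 24 h (log2 1.70 and -1.51, adjusted p of the difference 1.46e-08).

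Effects on inflammatory genes were partly smaller at 72 h. For 9 of 23 NF-kB genes the effect was smaller at 72 h than at 24 h, and for 2 of 37 interferon-stimulated genes, beside 4.18% of all tested genes with a more negative effect at 72 h, a share which the interferon count is near. Il1b averaged 1416 ± 24.4 CPM at 8 h (n = 4), 212 ± 29.6 CPM at 24 h (n = 3) and 48.2 ± 7.51 CPM at 72 h (SD, n = 3) in cell extract cultures, but the difference of its effects at 72 h and 24 h did not pass (log2 -2.22 ± 1.11 SE, adjusted p = 0.228). Irg1 averaged 545 ± 38.1 CPM with cell extract at 72 h and 1417 ± 38.6 CPM at 24 h, and its difference did not pass either (adjusted p = 0.284). Fpr1, Marco and Saa3 had effects that differed by -0.52 ± 1.30, 0.06 ± 0.564 and 0.04 ± 0.467 (SE) on the log2 scale, none past the threshold. Arg1, Nos2, Tnf, Cxcl10 and Mrc1 had differences with adjusted p of 0.660, 0.588, 0.175, 0.433 and 0.849.

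**Figure D5:**
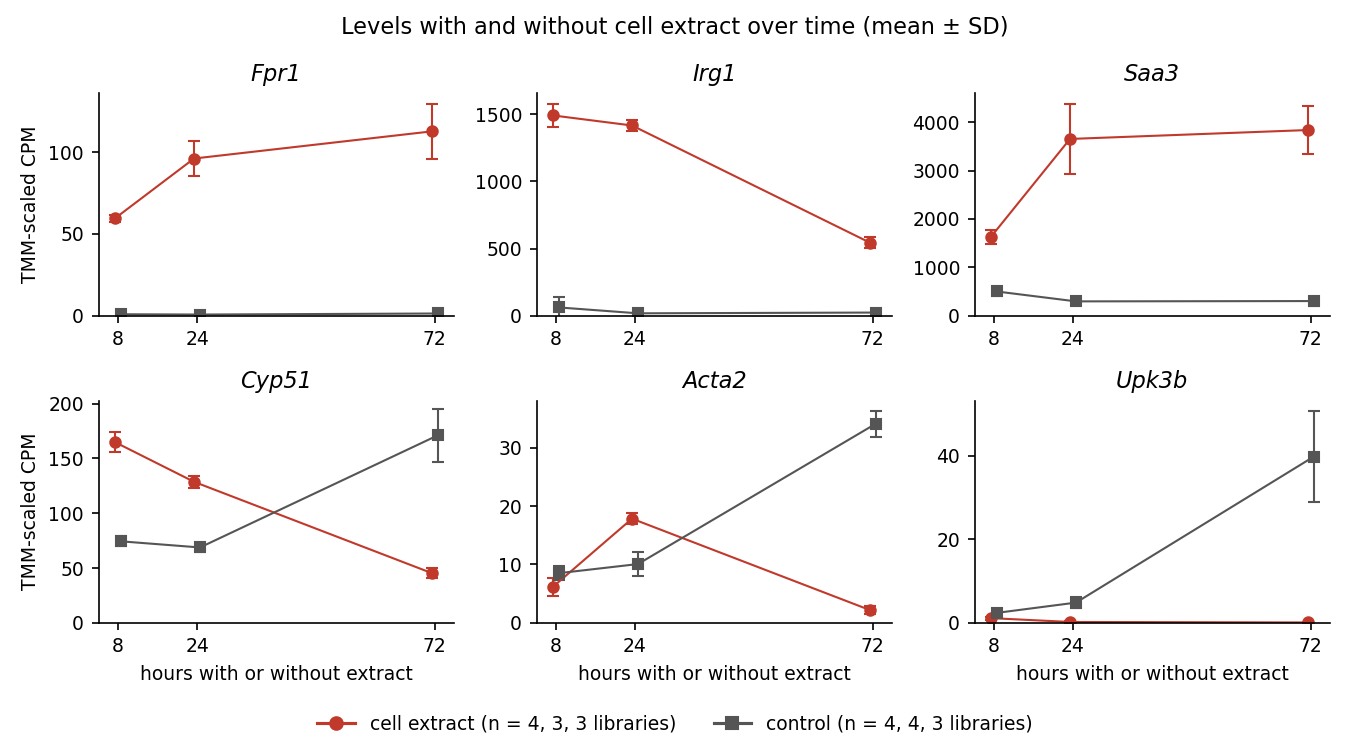
Mean level with its SD, in TMM-scaled CPM, of 6 genes after 8, 24 and 72 h with cell extract (circles, 4, 3 and 3 libraries) or without (squares, 4, 4 and 3 libraries). Fpr1, Irg1 and Saa3 are above control at each time, whereas Cyp51 and Acta2 are above control at 24 h and below it at 72 h, when Acta2 averages 2.20 CPM with cell extract and 34.1 CPM in control.

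Cell extract was last compared with LPS at 72 h (4 libraries), the bacterial stimulus of the M1 state. Here 1604 genes were higher with cell extract than with LPS and 1651 lower (22.4% called, 11.0% higher and 11.4% lower, median log2 over all genes -0.07). LPS replicate 1 held 1.10 M gene counts, and the other LPS libraries 6.02 to 10.7 M. Without LPS replicate 1, 1811 genes were higher with cell extract and 1286 lower. Interferon-stimulated genes were lower in 30 of 37 cases with none higher (median log2 -1.52), interferon-inducible GTPases in 14 of 15 (-1.98), NF-kB genes in 16 of 23 (-0.85), MHC class I genes in 16 of 17 (-1.32) and M1 markers in 19 of 28 with 1, Marco, higher (-1.46). Nos2 averaged 48.5 ± 9.04 CPM with cell extract (n = 3) and 574 ± 209 CPM with LPS (SD, n = 4), a log2 difference of -3.57 ± 0.489 (SE, adjusted p = 5.19e-07). Il1b averaged 48.2 ± 7.51 CPM with cell extract and 553 ± 131 CPM with LPS (adjusted p = 0.000516). Tnf, Cxcl10 and Il6 did not differ past the threshold, at log2 -1.32 ± 0.626, -1.42 ± 0.769 and -0.93 ± 0.831 (SE, adjusted p = 0.128, 0.186 and 0.446).

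For genes at a mean of 5 CPM or more over both groups, those furthest below their LPS level were Stfa3, a cystatin-like protease inhibitor, Trem1, an amplifier of inflammation, the Ly6 genes Ly6i and Ly6a, and Ubd, a ubiquitin-like modifier. Ly6i averaged 19.9 ± 3.56 CPM with cell extract and 774 ± 285 CPM with LPS (log2 -5.27 ± 0.374 SE, adjusted p = 1.52e-13), and Trem1 0.511 ± 0.119 CPM with cell extract and 26.2 ± 2.33 CPM with LPS. Furthest above LPS was Slc13a3, at 29.7 ± 2.25 CPM with cell extract and 0.337 ± 0.313 CPM with LPS (log2 6.01 ± 0.486 SE, adjusted p = 4.49e-12). Marco averaged 184 ± 3.76 CPM with cell extract and 16.7 ± 2.89 CPM with LPS (adjusted p = 1.47e-11), Slc27a6 30.3 ± 4.79 CPM with cell extract and 2.21 ± 1.501 CPM with LPS, and Epas1 (HIF-2α) 73.3 ± 3.73 CPM with cell extract and 9.82 ± 5.09 CPM with LPS. Igfbp3, a carrier of insulin-like growth factors, was also among them (18.4 ± 2.50 CPM with cell extract, 1.48 ± 0.343 CPM with LPS, log2 3.69 ± 0.381 SE). Arg1 and Mrc1 were higher with cell extract than with LPS (log2 1.63 ± 0.323 and 2.19 ± 0.258 SE, adjusted p = 0.000202 and 2.4e-08). Atf4 targets were higher with cell extract than with LPS in 12 of 17 cases and lower in 1 (median log2 0.71), and sterol genes in 3 and 3 of 23 (0.04). Fpr1 did not differ past the threshold (log2 0.45 ± 0.429 SE, adjusted p = 0.474).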

How the data were processed

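The deposited table held whole-number read counts per gene for 44 libraries in 12 groups, counted by the authors with HTSeq after cutadapt, Bowtie2 and TopHat2 2.1.1 on mm10, per the submitters' processing notes. These notes also name TopHat, DESeq and edgeR. Per the labels' protocols, polyA RNA was made into libraries with a Diagenode CATS kit. Neither the gene annotation nor the strandedness used in counting is given in the sources used here. Whether rat RNA carried over with the H9c2 extract gave any of the reads was not tested. No molecular identifiers are mentioned, so 1 molecule may have given several reads. The 5 summary entries of the counter were left out.

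All 44 libraries were fitted together in edgeR 4.0.16 (R 4.3.3, limma 3.58.1) with TMM scaling, filterByExpr at a minimum count of 10 and the quasi-likelihood test. This left 14537 of 46078 genes and 32 residual degrees of freedom. The call threshold was an adjusted p (Benjamini-Hochberg) under 0.05. The SE is the log2 difference divided by the root of the F statistic. Levels are TMM-scaled CPM, and fitted fold changes use a prior count of 0.125. Where 1 group had no read of a gene, the fold is a bound computed with 3 counts in that group, which covers counting error in that group only. The scripts were tested on simulated data. Alternatives were RLE size factors, DESeq2 1.42.0, no filter, the compared groups alone, a block for replicate number, and single libraries left out. Leaving out both libraries rich in ribosomal RNA was added after seeing the data.

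The genes named are the 12 largest rises and 10 largest falls among called genes at a mean of 5 CPM or more whose groups did not overlap, up to 4 or 5 members with the smallest p from each list, 11 M1 and M2 markers that are always named, and the 5 largest differences either way in the other comparisons. The comparison, the 56 gene lists (923 genes, of which 850 were tested and 1, Il36g, was not found) and the rule were chosen with earlier results of these data known. Choice for separate groups or for the smallest p favours groups that lie apart, so separate groups of genes named in this way are not a further result. Gene coordinates are from GENCODE M21 (GRCm38), the mm10 assembly.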

Additional observations from a re-analysis of the deposited data

Results flagged for a closer look

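Groups of 4 libraries (cell extract at 8 h, LPS at 72 h, and control at 8 h and 24 h) were searched for a library far from the others, for the M1 and M2 markers that are always named and, with LPS, the genes furthest from their LPS level. This was so in 12 of 53 cases. Chance gives about 1 in 20 independent cases, but 10 of the 12 come from replicate 1 of the 8 h and 24 h controls and are not independent. Most were in the earlier controls. Control replicate 1 at 8 h was at 24.4 CPM for Nos2 (2.93 to 5.12 CPM in the other 3 libraries), 87.1 CPM for Il1b (3.65 to 4.90 CPM), 101.0 CPM for Il6 (1.74 to 3.04 CPM), 96.4 CPM for Tnf (6.71 to 9.70 CPM), 12.03 CPM for Il12b (0.426 to 0.799 CPM) and 96.5 CPM for Cxcl10 (2.35 to 3.20 CPM). Control replicate 1 at 24 h was at 6.92 CPM for Nos2 (1.12 to 1.80 CPM), 15.3 CPM for Il6 (0.749 to 2.94 CPM), 2.22 CPM for Il12b (0.214 to 0.519 CPM) and 15.1 CPM for Cxcl10 (2.03 to 2.51 CPM). The other 2 were Arg1 in control replicate 2 at 8 h (12.99 CPM against 17.8 to 17.9 CPM) and Stfa3 in LPS replicate 4 at 72 h (67.5 CPM against 42.5 to 46.3 CPM). The cell extract and control groups at 72 h, with 3 libraries each, are too small for this check.

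The effect of cell extract at 72 h differed from its effect at 24 h by its own edgeR test in 10 genes named for the size of that difference. It was more positive at 72 h by 4.35 on the log2 scale for Cdo1, 3.77 for F5 (adjusted p = 1.19e-06), 3.73 for Slc27a6 (adjusted p = 9.58e-07), 3.52 for Abcb1a (adjusted p = 9.07e-10) and 3.31 for Car6 (adjusted p = 3.34e-07). The difference was -4.92 for Acta2, -4.74 for Tagln, -4.00 for Scd2 (adjusted p = 3.58e-10) and -3.92 for Upk3b (adjusted p = 0.00182), the last with log2 effects of -8.29 at 72 h and -4.38 at 24 h. Siglece, an inhibitory sialic acid receptor, had -6.35 (adjusted p = 7.6e-05), with log2 effects of 2.27 at 72 h and 8.62 at 24 h and only 2 counts in the 24 h controls.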

How the results depend on the processing

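With RLE size factors 1841 genes were higher and 2008 lower with cell extract than in control at 72 h, with DESeq2 1937 and 2105, without a filter 2095 and 1370, and with the compared groups alone 1780 and 1575. With single replicates left out the counts were 1525 to 1959 higher and 1295 to 1529 lower, and without the 2 libraries rich in ribosomal RNA 1686 and 1355. For the effect at 72 h minus that at 24 h, the compared groups alone gave 1292 higher and 940 lower. Leaving out single libraries gave 410 to 650 and 419 to 587, with 424 higher without cell extract replicate 2 and 410 without replicate 4. For cell extract against LPS single libraries left out gave 1065 to 2024 higher and 1059 to 1574 lower, with 1059 lower without cell extract replicate 3 and 1065 higher without replicate 4, and 1074 were lower without the libraries rich in ribosomal RNA. The cause was not tested.

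Cell extract and control share only replicate numbers 3 and 4 at 72 h. Their deviations correlated across genes at 0.249 and 0.284, above the other 7 pairs (-0.322 to 0.160), a hint of pairing that 2 shared numbers cannot settle. Both replicate 3 libraries were rich in ribosomal RNA, which was not tested here. Reads that fell on more than 1 gene took 17.3% in both. They took 11.1% to 16.1% in replicate 3 of control and cell extract at 8 h, control and LPS at 24 h and LPS at 72 h. In replicate 3 of LPS at 8 h, cell extract at 24 h and IL-4 at 8, 24 and 72 h they took 3.92% to 4.60%. The labels do not say what a replicate number stands for. The replicate block gave 1925 higher and 1686 lower genes at 72 h, 671 and 648 for the difference between times, and 1664 and 1851 against LPS.

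Of 196 named genes, 179 kept their direction and their side of the threshold under every alternative that gave them a value (4 had none with DESeq2). Only Igfbp3, not called (log2 0.17), changed sign, at log2 -0.12 without the libraries rich in ribosomal RNA and -0.00253 to 0.53 with single replicates left out, the lowest being without control replicate 3. Without a filter Jun, Ifi30, Plin2, Il7r, Suclg1, Idh1 and Dlst lost their calls and Il6, Il12b, Chil3 and Retnla gained one. Epas1 was called lower with RLE, DESeq2, the block or the compared groups alone, and Trem1 higher without control replicate 4. Calls of Il1b, Tnf and Cxcl10 that single libraries end are given with their values. Control replicate 4, at 1.79 M gene counts, limits what could be seen for low genes.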
